A study of Mus musculus with 6 samples.

Results

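The mitochondrial ribosomal protein genes, whose symbols begin with Mrpl (large subunit) or Mrps (small subunit), were followed in embryonic mouse hearts in which both Tfam alleles were floxed for removal in the cardiac lineage. Members were taken by symbol alone, as Mrpl or Mrps followed by a number and at most 1 letter, which gave 76 of the 23284 genes listed, 47 Mrpl and 29 Mrps. The Tfam KO group was Tfam fl/fl; Nkx2.5 IRES-Cre/+, with both Tfam alleles floxed, and the Control group was Tfam fl/+; Nkx2.5 IRES-Cre/+, with 1 floxed allele. Both groups were C57BL/6, were taken at stage E13.5 and carried 1 copy of Cre driven from the cardiac gene Nkx2.5. Each group had 3 libraries of poly(A) RNA, each from 5 pooled whole hearts. Cells of the heart outside the Nkx2.5 lineage keep their Tfam alleles.

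Mitochondria carry their own ribosome, which translates the few respiratory chain proteins encoded by mitochondrial DNA. Its ribosomal RNAs are transcribed from mitochondrial DNA, whereas all of its proteins are encoded in the nucleus, made in the cytosol and imported. Tfam packages mitochondrial DNA and is needed for its transcription. Some of the ribosome's proteins descend from those of the bacterial ribosome, and the others are found only in mitochondria. The adult heart relies on oxidative phosphorylation and therefore on this ribosome, and the hearts used here were embryonic.

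The libraries held 12544836 to 16709959 reads in Tfam KO and 12370092 to 18078620 reads in Control. The ribosomal RNA precursor Rn45s took 14.95% to 31.21% of the reads in Tfam KO and 27.76% to 32.49% in Control. With FPKM rescaled to library totals without Rn45s, 3 members were higher in Tfam KO and 6 lower, as many as with size factors. Of all tested genes, 258 were higher and 253 lower on that scale. Tfam KO replicate 3 had the lowest Rn45s share. Its chi-square per degree of freedom over the genes' reads was 30.0 to 45.5 against the Control libraries, where the other Tfam KO libraries had 15.6 to 28.9. It also had the most reads by a median-of-ratios size factor on reads, 1.54 against 0.74 to 1.26 in the other libraries. Tfam KO replicate 2 had 15.6 against Control replicate 2 and 19.2 against Tfam KO replicate 3. These values were taken on reads not scaled for depth and grow with the number of reads. They therefore do not rank the libraries by likeness. Without Tfam KO replicate 3, 2 members were higher and 4 lower, with Mrps18b, Mrpl2 and Mrpl54 no longer past the threshold. In that fit 196 of all tested genes were higher and 163 lower. The scales of the libraries differed, so levels are given as deposited in FPKM (reads scaled to transcript length and library total), and log2 fold changes of Tfam KO over Control come from FPKM divided by a size factor per library. Since 1 FPKM is added before taking logs, fold changes of genes at low FPKM come out too small. Over the 10807 genes tested, the log2 fold change had a median of 0.00 with size factors and 0.28 as deposited. The 8 cardiomyocyte markers were all present, and their summed scaled FPKM was 6795 to 12906 in Tfam KO and 10399 to 13633 in Control, which overlapped. The summed levels of the endothelial, epicardial, fibroblast, erythroid, macrophage, liver and lung marker lists also overlapped between the groups, and the lung markers Sftpc and Foxa2 were at 0 in every library. In such bulk samples, fewer cells of a type and less RNA per cell cannot be told apart.

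Tfam itself had 3.97, 4.77 and 6.22 FPKM in Tfam KO and 4.64, 5.55 and 6.62 FPKM in Control. With size factors the Tfam KO libraries all lay below the Control libraries, but the log2 fold change of -0.43 (SE 0.15) did not pass the test (limma, adjusted p = 0.140). With each library's trend on GC content removed it passed, at -0.49 (limma adjusted p = 0.0375). Values per gene cover exons outside the floxed stretch as well, and Control had 1 floxed allele too. Whether either affected the Tfam values was not tested.

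All 76 members were expressed above the minimum mean of 1 FPKM. Their mean level over the 6 libraries ran between 1.99 FPKM for Mrpl17 and 137 FPKM for Mrpl42, with a median of 12.8 FPKM. A member had between 18 and 1648 reads in a library, with a median of 208. With size factors the members' median log2 fold change was 0.03, with 40 above 0 and 36 below, where 50.4% of all tested genes were above 0. As deposited 61 were above 0 and 15 below, where 84.4% of all tested genes were above 0. At an adjusted p under 0.05, 3 of 76 members were higher in Tfam KO (3.95%), against 1.99% of all tested genes, and 6 were lower (7.89%), against 2.6% of all tested genes. At an unadjusted p under 0.05, 12 were higher, against 8.49% of all tested genes, and 15 were lower, against 11%. The members called higher after adjustment were Mrps18a, Mrpl47 and Mrps18b. Those called lower were Mrpl34, Mrpl52, Mrps26, Mrpl12, Mrpl2 and Mrpl54. On the values as deposited 11 members were higher, against 6.21% of all tested genes, and 2 were lower, against 1.16%. The members past the threshold in the same direction on both scales were the 3 higher ones, against 1.99% of all tested genes, and among the lower ones Mrpl34 and Mrpl52, against 0.953%. Only of these 5 are the words rose and fell used. All 215 tested genes higher with size factors were also higher as deposited, so for higher members the second scale is no further support. Of the 281 tested genes lower with size factors, 103 were lower on both scales. Limma-voom on the recovered reads called the same 9 members in the same directions and added Mrps30 and Mrpl17, so that 4 were higher, against 2.57% of genes, and 7 were lower, against 4.25%. The 9 genes called with size factors are drawn in the plot of scaled FPKM by library.

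**Figure D1:**
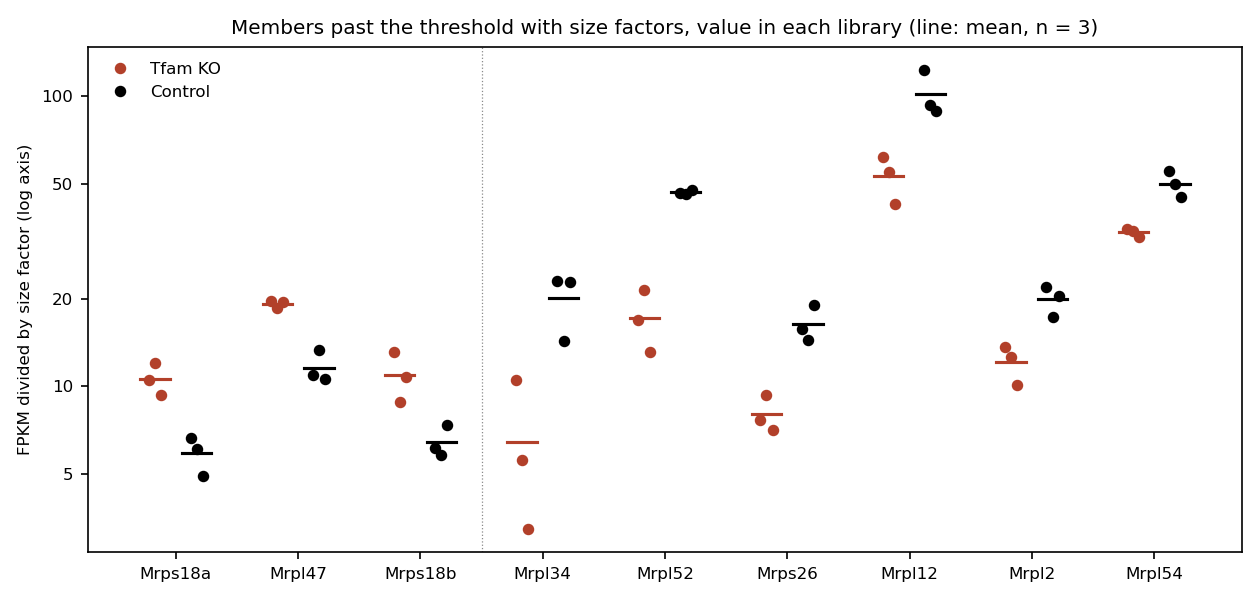
FPKM divided by the library's size factor (log axis) of the 9 mitochondrial ribosomal protein genes past an adjusted p of 0.05 on that scale; points are libraries and lines are group means (n = 3 each), with Tfam KO (red) left of Control (black) and a dotted line between the higher and the lower genes. The Tfam KO points of Mrps18a, Mrpl47 and Mrps18b lie above all of their Control points, those of the other 6 genes lie below them, and Mrpl34 has the widest spread, with 10.5, 5.59 and 3.21 in Tfam KO and 22.996, 14.4 and 22.97 in Control.

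Mrps18a rose. Its product, named mL66 in structures of the ribosome, sits in the large subunit despite its symbol. It had 12.3, 11.1 and 12.4 FPKM in Tfam KO and 5.40, 5.24 and 4.93 FPKM in Control. The libraries of each group lay close together. The groups did not overlap, with Tfam KO above, as in 25.6% of all tested genes as deposited. The means were 11.9 ± 0.737 FPKM in Tfam KO and 5.19 ± 0.239 FPKM in Control (SD, n = 3 each). This gave a log2 fold change of 0.76 (SE 0.14, limma adjusted p = 0.0122) with size factors and 1.06 as deposited. With size factors the call was lost without Tfam KO replicate 2 or without Control replicate 3 (adjusted p up to 0.0640).

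Mrpl47 rose as well. It encodes uL29m, a protein of bacterial ancestry that lies by the exit of the tunnel through which the new chain leaves the large subunit. It had 22.9, 17.1 and 25.9 FPKM in Tfam KO and 8.89, 11.5 and 10.6 FPKM in Control. Every Tfam KO library was above every Control library, as in 25.6% of all tested genes as deposited. With size factors the Tfam KO libraries drew together at 19.7, 18.6 and 19.5 against 10.95, 13.3 and 10.6 in Control. Its log2 fold change came to 0.69 (SE 0.12, limma adjusted p = 0.00947) with size factors and 1.01 as deposited. Only without Control replicate 3 was the call lost (adjusted p = 0.0598).

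Mrps18b rose with more spread. Its product, mS40, sits in the small subunit. It had 15.3, 8.11 and 14.3 FPKM in Tfam KO and 4.98, 4.99 and 7.41 FPKM in Control. Tfam KO replicate 2 lay only a little above the highest Control library. Tfam KO over Control gave a log2 fold change of 0.67 (SE 0.15, limma adjusted p = 0.0362) with size factors and 0.97 as deposited. With size factors the call was kept in 1 of the 6 fits that left out a library, the one without Tfam KO replicate 2 (adjusted p up to 0.102 in the others). An antisense gene, Gm16279, shares 638 bases of exon with Mrps18b, and a processed pseudogene, Gm13552, is near-identical to it, so reads could be shared with either.

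The third paralog of this family, Mrps18c, did not pass the test. It encodes bS18m, which takes the place of the bacterial S18 protein in the small subunit. It had 20.3, 16.4 and 19.7 FPKM in Tfam KO and 10.9, 14.98 and 15.8 FPKM in Control, with a log2 fold change of 0.11 (SE 0.13, limma adjusted p = 0.732). The ratio of FPKM of Mrps18a to Mrps18c, which does not depend on a library's scale, was 0.604, 0.673 and 0.630 in Tfam KO and 0.497, 0.350 and 0.313 in Control. Mrps18b over Mrps18c was 0.752, 0.493 and 0.728 in Tfam KO and 0.458, 0.333 and 0.470 in Control. In both ratios all Tfam KO libraries lay above all Control libraries.

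Among the lower members, Mrpl52 had the smallest adjusted p. Its product, mL52, is a protein of the large subunit found only in mitochondria. It had 19.7, 19.9 and 17.4 FPKM in Tfam KO and 37.8, 39.6 and 47.5 FPKM in Control. The groups were far apart, with means of 19.0 ± 1.37 FPKM in Tfam KO and 41.7 ± 5.17 FPKM in Control (SD, n = 3 each). Its log2 fold change, at -1.41 (SE 0.16, limma adjusted p = 0.000681) with size factors and -1.09 as deposited, was kept past the threshold in each of the 6 fits with size factors that left out a library. No other annotated gene shares exon sequence with Mrpl52.

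Mrpl34 fell the most. It encodes bL34m, a very small large-subunit protein of bacterial ancestry. It had 12.2, 5.16 and 4.26 FPKM in Tfam KO and 18.7, 12.4 and 23.03 FPKM in Control, from 99, 46 and 46 reads in Tfam KO and 168, 99 and 269 reads in Control. Tfam KO replicate 1 nearly reached Control replicate 2 as deposited, and the rest were well separated. Mrpl34 had a log2 fold change of -1.60 (SE 0.31, limma adjusted p = 0.0163) with size factors and -1.30 as deposited. With size factors the call was lost without Tfam KO replicate 2 or without Control replicate 3 (adjusted p up to 0.0676).

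The start regions of 2 members that rose and 2 that fell are shown because the members moved in opposite directions. Each is the RefSeq window of 300 bases on GRCm38.p6, with 250 bases before the gene's RefSeq start and 50 after it. Capitals mark the ETS motif of factors such as GABPA, CCGGAAG or its other strand CTTCCGG, and the YY1 motif, AAGATGG or its other strand CCATCTT. Neither these nor the other motifs searched is in the Mrpl47 window. For Mrpl47 the RefSeq start lies inside the gene as GENCODE vM21 draws it, so the GENCODE start falls outside the window and was not searched.
Mrps18a, chr17:46110754-46111053, plus strand: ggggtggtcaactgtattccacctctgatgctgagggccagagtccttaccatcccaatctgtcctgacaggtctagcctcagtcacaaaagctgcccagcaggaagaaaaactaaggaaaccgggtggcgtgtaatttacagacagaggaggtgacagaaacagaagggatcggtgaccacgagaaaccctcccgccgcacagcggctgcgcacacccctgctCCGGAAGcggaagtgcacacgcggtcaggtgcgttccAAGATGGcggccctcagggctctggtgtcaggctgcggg
Mrpl47, chr3:32736706-32737005, minus strand: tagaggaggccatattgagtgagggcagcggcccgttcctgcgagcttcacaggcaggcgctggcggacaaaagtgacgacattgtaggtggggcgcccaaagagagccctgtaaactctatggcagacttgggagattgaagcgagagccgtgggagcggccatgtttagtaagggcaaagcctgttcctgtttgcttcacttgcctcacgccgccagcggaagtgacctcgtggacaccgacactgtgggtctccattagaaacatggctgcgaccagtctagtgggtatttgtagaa
Mrpl52, chr14:54426659-54426958, plus strand: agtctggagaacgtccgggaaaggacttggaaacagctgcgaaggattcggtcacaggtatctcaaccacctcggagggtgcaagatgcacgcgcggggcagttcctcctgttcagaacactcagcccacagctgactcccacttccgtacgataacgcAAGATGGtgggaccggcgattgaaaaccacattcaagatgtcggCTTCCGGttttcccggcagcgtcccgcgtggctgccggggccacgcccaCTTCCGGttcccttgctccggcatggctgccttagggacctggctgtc
Mrpl34, chr8:71464676-71464975, plus strand: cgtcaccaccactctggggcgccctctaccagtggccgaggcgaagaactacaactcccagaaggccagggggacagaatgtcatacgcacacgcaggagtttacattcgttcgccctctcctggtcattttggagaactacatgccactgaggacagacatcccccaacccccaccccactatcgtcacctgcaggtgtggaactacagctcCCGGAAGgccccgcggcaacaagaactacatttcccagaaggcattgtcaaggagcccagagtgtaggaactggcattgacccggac

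GABPA and NRF1 are known activators of nuclear genes for mitochondrial proteins, and ATF4 drives a stress program set off by mitochondrial faults. RefSeq windows were at hand for 67 members, 73 windows in all, which can overlap for starts of the same gene. The ETS motif was in 32.9% of the member windows and 8.86% of all 32851 windows. The NRF1 motif, GCATGCGC or GCGCATGC, was in 11% of the member windows and 2.71% of all windows. The YY1 motif was in 17.8% of the member windows and 6.34% of all windows, and the E-box CACGTG, which reads the same on both strands, in 9.59% and 7.15%. The ATF4 response element, TGATGNAA or TTNCATCA, was in 0 of 73 member windows and 3.97% of all windows. None of these motifs contains another. By direction, the ETS motif was in 2 of the 3 higher members, 3 of the 5 lower members with a window and 19 of the 59 others. It thus stood in members of both directions.

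Mrps26, Mrpl12, Mrpl2 and Mrpl54 were lower with size factors only. Mrps26, whose product mS26 belongs to the small subunit and is found only in mitochondria, had 8.95, 8.58 and 9.39 FPKM in Tfam KO and 12.8, 12.5 and 19.1 FPKM in Control. Its log2 fold change came to -0.95 (SE 0.14, limma adjusted p = 0.00365) with size factors and -0.64 (adjusted p = 0.0622) as deposited. Mrpl12 encodes bL12m of the stalk that helps bring translation factors to the ribosome, and had 72.0, 50.4 and 56.6 FPKM in Tfam KO and 99.99, 80.6 and 89.5 FPKM in Control. The log2 fold change of Mrpl12 came to -0.93 (SE 0.17, limma adjusted p = 0.0113) with size factors and -0.60 (adjusted p = 0.0820) as deposited. For both genes the groups did not overlap on either scale, and each of the 6 fits with size factors that left out a library kept the call. Of all tested genes, Tfam KO lay below Control without overlap in 2.34% as deposited and 12.2% with size factors. Mrpl12 shares 200 bases of exon with Gm16755 on the opposite strand, and Mrps26 has a near-identical pseudogene, Gm9063.

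Mrpl2 and Mrpl54 had smaller differences. Mrpl2 encodes uL2m, a conserved protein near the centre where peptide bonds form, and had 16.0, 11.7 and 13.4 FPKM in Tfam KO and 17.9, 15.02 and 20.6 FPKM in Control. As deposited its groups overlapped at Tfam KO replicate 1 and Control replicate 2, and with size factors they did not. The log2 fold change of Mrpl2 came to -0.67 (SE 0.14, limma adjusted p = 0.0232) with size factors and -0.36 (adjusted p = 0.288) as deposited. Mrpl54, whose product mL54 is found only in mitochondria, had 40.7, 31.7 and 43.5 FPKM in Tfam KO and 44.8, 43.0 and 45.2 FPKM in Control. Its log2 fold change came to -0.54 (SE 0.12, limma adjusted p = 0.0276) with size factors and -0.20 (adjusted p = 0.537) as deposited. Of the 6 fits with size factors that left out a library, those without Tfam KO replicate 1 or Control replicate 2 kept Mrpl2, and only that without Tfam KO replicate 1 kept Mrpl54 (adjusted p up to 0.103).

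A further 8 members were past the threshold only on the values as deposited, against 4.22% of all tested genes. These were Mrps30, Mrpl20, Mrps5, Mrps16, Mrpl30, Mrps27, Mrpl23 and Mrpl13, all higher in Tfam KO, with log2 fold changes of 0.68 to 0.79 as deposited and 0.35 to 0.47 with size factors. As deposited, leaving out a library gave 25 higher members without Tfam KO replicate 2 and 2 to 4 in the other 5 fits. The share of all tested genes was not worked out for these fits, so these counts are no result about the members. Mrps30 came nearest with size factors. It encodes mL65, a mitochondrial large-subunit protein despite its symbol, and had 33.5, 25.3 and 42.3 FPKM in Tfam KO and 14.7, 20.6 and 21.3 FPKM in Control (log2 fold change 0.47, SE 0.13, limma adjusted p = 0.0747). Its groups did not overlap on either scale, with Tfam KO above. Of all tested genes this was so in 25.6% as deposited and 11.8% with size factors. Mrps30 shares 623 bases of exon with B430218F22Rik on the opposite strand, so reads could be shared. The groups of Mrpl13 and Mrpl23, genes for large-subunit proteins of bacterial ancestry, overlapped with size factors.

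The counts that follow stand against 1.99% of all tested genes higher and 2.6% lower, and several rest on 1 gene. Counted by symbol, 1 of 47 Mrpl genes was higher in Tfam KO and 5 were lower, and 2 of 29 Mrps genes were higher and 1 was lower. Counted by the place of the protein in the ribosome, 2 of 49 large-subunit genes were higher and 5 were lower, and 1 of 26 small-subunit genes was higher and 1 was lower. By the names used in structures, members of a bacterial family gave 1 higher and 3 lower of 46, and members with a mitochondrial name gave 2 higher and 3 lower of 29. Members with a mitochondrial name include Mrps18a and Mrps18b, which are paralogs of the bacterial S18 family. With both counted as bacterial, the bacterial families gave 3 higher and 3 lower of 48, and the rest gave 0 higher and 3 lower of 27 by limma. Of these 27, limma-voom called 1 higher, against 2.57% of genes. With p unadjusted 3 of them were higher, against 8.49% of all tested genes. Members called in opposite directions with size factors stood in both subunits, by symbol and by place. In the small subunit the only lower one was Mrps26, which did not pass as deposited. By place the only higher one there was Mrps18b, whose call was lost in most fits that left out a library. Mrps36, which carries a ribosomal symbol but is a component of the 2-oxoglutarate dehydrogenase complex, had 22.04, 22.2 and 31.3 FPKM in Tfam KO and 15.8, 21.9 and 18.1 FPKM in Control (log2 fold change 0.09, limma adjusted p = 0.813). All 76 members are shown in the plot of log2 fold changes.

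**Figure D2:**
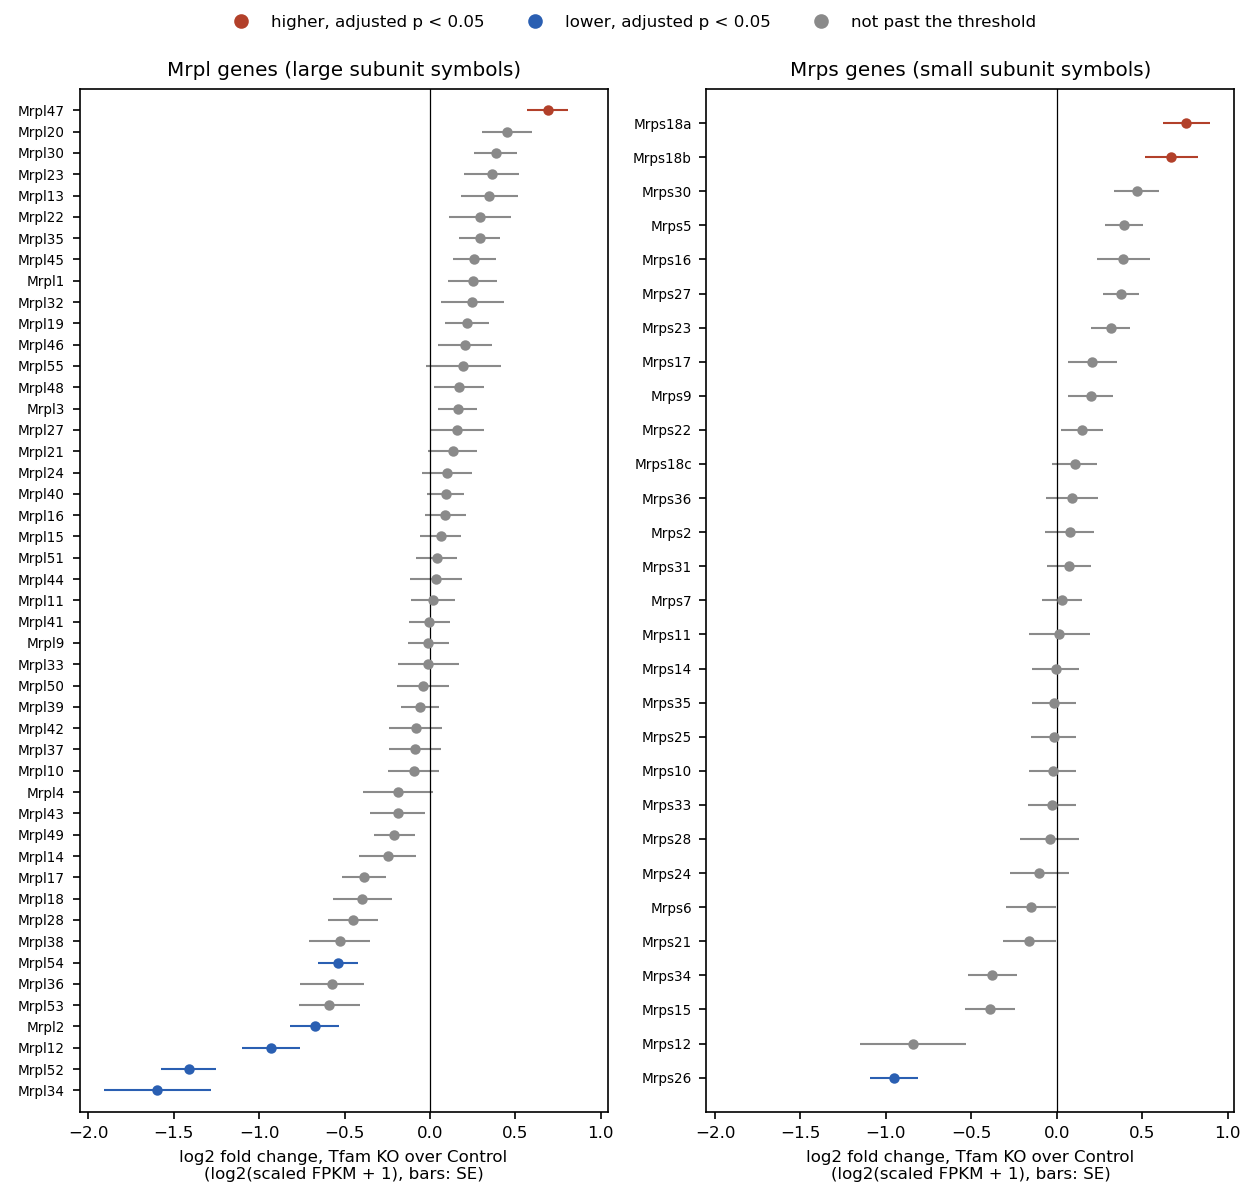
Log2 fold change of Tfam KO over Control, on log2(scaled FPKM + 1), for all 76 members, with Mrpl genes in the left panel and Mrps genes in the right one; bars are the SE from the limma fit, red and blue points are members past an adjusted p of 0.05 (higher and lower) and grey points are the others. The called members lie toward both ends, between -1.60 for Mrpl34 and 0.76 for Mrps18a, and Mrps12 at -0.84 has a wide bar and is not called.

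The medians of the subunits lay close together. The median log2 fold change with size factors was 0.02 for Mrpl genes (quartiles -0.23 and 0.20) and 0.03 for Mrps genes (quartiles -0.04 and 0.21), against 0.00 for all tested genes (quartiles -0.16 and 0.15). As deposited the medians were 0.32 for Mrpl and 0.34 for Mrps, against 0.28 for all tested genes. With size factors the Tfam KO libraries all lay above the Control libraries for 4 Mrpl and 7 Mrps genes, which for all tested genes was so in 11.8%. They all lay below them for 9 Mrpl and 2 Mrps genes, which for all tested genes was so in 12.2%. Whether the subunits differed in these counts was not tested.

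The summed levels gave a lower Mrpl to Mrps ratio in every Tfam KO library than in any Control library. Summed over genes, Mrpl FPKM was 1052, 788 and 1033 in Tfam KO and 819, 842 and 891 in Control, and Mrps FPKM was 488, 382 and 535 in Tfam KO and 332, 362 and 380 in Control. The ratio of these sums, which is free of the library's scale, was 2.16, 2.07 and 1.93 in Tfam KO and 2.47, 2.33 and 2.34 in Control, with no overlap. By place in the ribosome the ratio of large to small subunit was 2.53 ± 0.0979 in Tfam KO and 2.78 ± 0.0553 in Control (SD, n = 3 each). Without the 9 called members, a choice made after their values were seen, the Mrpl to Mrps ratio was 1.92, 1.84 and 1.75 in Tfam KO and 1.92, 1.89 and 1.88 in Control, and the groups overlapped. Mrpl12, ranked 2 in mean FPKM among all members.

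**Figure D3:**
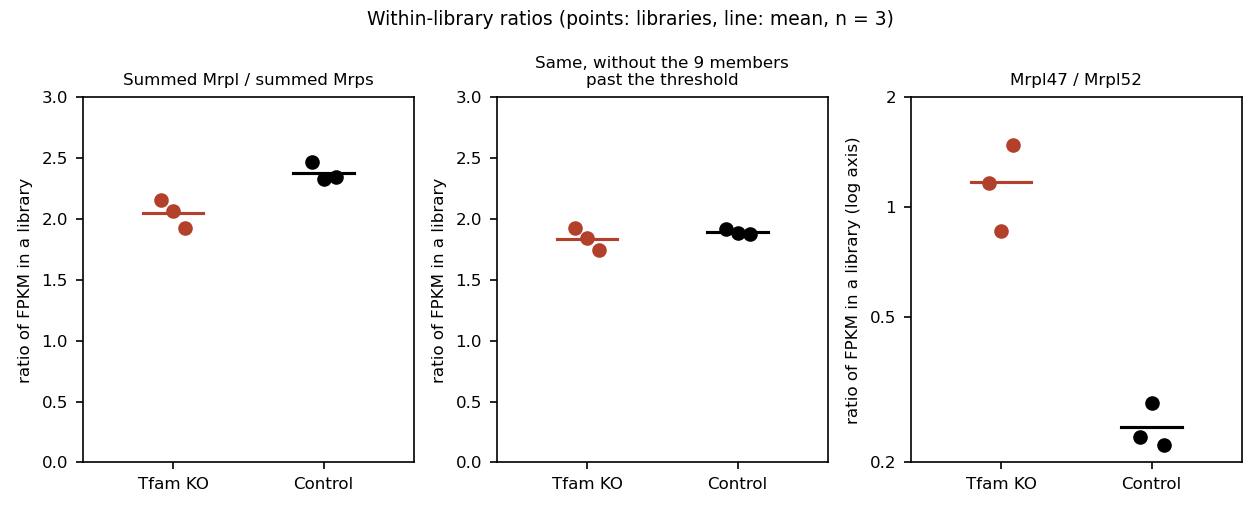
Ratios of FPKM within each library, which do not depend on the library's scale, as points with lines at the group means (n = 3 each), Tfam KO left of Control; the left and middle axes start at 0 and the right axis is a log axis. The summed Mrpl to Mrps ratio lies between 1.93 and 2.16 in Tfam KO and between 2.33 and 2.47 in Control, the groups overlap once the 9 called members are left out, and the Mrpl47 to Mrpl52 ratio lies between 0.861 and 1.48 in Tfam KO and between 0.223 and 0.290 in Control.

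Ratios between members that moved opposite ways separated the groups more widely. Mrpl47 over Mrpl52, both of the large subunit, was 1.16, 0.861 and 1.48 in Tfam KO and 0.235, 0.290 and 0.223 in Control. Mrps18a over Mrpl34 was 1.004, 2.15 and 2.91 in Tfam KO and 0.289, 0.423 and 0.214 in Control. These pairs were picked for their difference, so the ratios are a description only. In both ratios every Tfam KO library lay above every Control library.

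Of the 5 members with the highest mean FPKM, Mrpl12 and Mrpl54 were called lower with size factors and the other 3 did not pass the test. Mrpl42, whose product mL42 is a mitochondrial large-subunit protein, had 183, 120 and 148 FPKM in Tfam KO and 118, 132 and 123 FPKM in Control (log2 fold change -0.08, limma adjusted p = 0.823). Mrpl18 had 48.0, 58.7 and 79.5 FPKM in Tfam KO and 49.8, 69.6 and 73.6 FPKM in Control (log2 fold change -0.40, limma adjusted p = 0.249). Mrps15 had 38.8, 42.8 and 44.2 FPKM in Tfam KO and 41.9, 43.4 and 45.9 FPKM in Control (log2 fold change -0.39, limma adjusted p = 0.174). The groups overlapped for each of these genes. Mrpl18 and Mrps15 encode proteins of bacterial ancestry.

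Mrps12, which encodes uS12m of the decoding centre of the small subunit, had 4.89, 3.60 and 6.65 FPKM in Tfam KO and 10.3, 3.55 and 11.7 FPKM in Control. Control replicate 2 lay with the Tfam KO libraries and the other Control libraries lay above them. Its log2 fold change came to -0.84 (SE 0.31, limma adjusted p = 0.170), and without Control replicate 2 it was -1.30 and passed the test.

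The called genes lie on several chromosomes of GRCm38. Of the 76 members, 32 share exon sequence with another gene and 32 have the start of an opposite-strand gene within 1000 bases. Among the higher genes, Mrps18a lies at chr17:46110986-46128910, Mrps18b at chr17:35910379-35916389 and Mrpl47 at chr3:32725397-32737605. Among the lower ones, Mrpl34 lies at chr8:71464959-71465747, Mrpl52 at chr14:54426909-54429756, Mrps26 at chr2:130563742-130568695, Mrpl12 at chr11:120484613-120489065, Mrpl2 at chr17:46646229-46650139 and Mrpl54 at chr10:81264713-81266934. Mrps18a and Mrpl2 are on the same strand of chromosome 17. With size factors Mrps18a was higher and Mrpl2 was lower. Mrpl2 starts 207 bases from Klc4, a kinesin light chain gene read the other way, which was lower with size factors too (log2 fold change -0.84, SE 0.15, limma adjusted p = 0.0105) but not as deposited (adjusted p = 0.0839). Apba3, which starts 26 bases from Mrpl54, had a log2 fold change of -0.86 (SE 0.24, limma adjusted p = 0.0714) with size factors. It did not pass as deposited either (adjusted p = 0.0760). The partner of Mrps18b, Ppp1r10, starts 45 bases away and had a log2 fold change of -0.01 (limma adjusted p = 0.986). Mtbp, which shares exon sequence with Mrpl13 on the opposite strand, was higher with size factors (log2 fold change 0.73, SE 0.12, limma adjusted p = 0.00694). Mrpl47 and Ndufb5 share exon sequence on opposite strands, and Ndufb5 had a log2 fold change of 0.14 (limma adjusted p = 0.662). Whether reads were counted by strand was not given in the sources used here, so reads of such pairs may be shared.

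Base composition moved with the fold changes. Over the 76 members, Spearman's rho of the log2 fold change with transcript GC content was -0.43, and over 10720 tested genes it was -0.29. The points share the same 6 libraries, so this is a description. The GC content was 45.3% to 56.0% in the 3 higher members and 49.2% to 60.4% in the 6 lower ones, with medians of 52.6% and 57.5%, against a median of 49.9% for all tested genes. The relation of each library's own deviation with GC over the members had a rho of -0.099, -0.319 and -0.490 in Tfam KO and 0.509, 0.0185 and 0.394 in Control. Over the 10720 tested genes that rho was 0.298, -0.161 and -0.625 in Tfam KO and 0.594, -0.209 and 0.0954 in Control, and the groups overlapped. The deviations are from the mean of the same 6 libraries, so they are tied to the fold changes. With each library's GC trend removed, a setting chosen after seeing the data, 5 members were higher, against 3.74% of genes, namely Mrps18a, Mrpl47, Mrps18b, Mrps30 and Mrps27. In that fit 6 were lower, against 3.56% of genes, with Mrpl53 called in place of Mrpl54, whose log2 fold change was then -0.22 (limma adjusted p = 0.304).

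**Figure D4:**
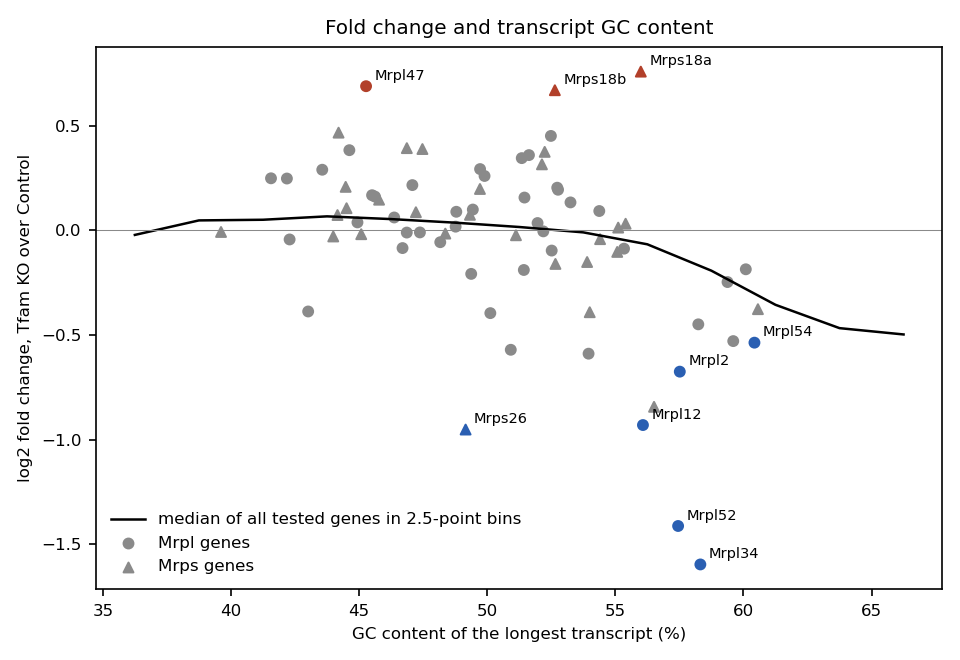
Log2 fold change of Tfam KO over Control with size factors against the GC content (percent) of the longest transcript, for the 76 members; circles are Mrpl and triangles Mrps genes, red and blue mark the called ones (higher and lower), and the black line is the median of all tested genes in bins of GC content. The line falls at high GC, Mrpl54 lies nearer to it than the other called genes, and Mrpl52, Mrpl34 and Mrps26 lie far below it.

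Other genes of mitochondrial translation were read from 3 lists. Among 7 ribosomal proteins with other symbols, limma called 1 higher and 0 lower in Tfam KO. Limma-voom on the recovered reads called 0 of them higher and 1 lower, and limma with p unadjusted also had 1 higher and 1 lower. The 25 tested genes for ribosome assembly and ribosomal RNA modification gave 1 higher and 0 lower by limma, and 1 higher and 0 lower by limma-voom. With p unadjusted 4 were higher, against 8.49% of all tested genes, and 0 lower, against 11%. The 19 translation factor genes gave 1 higher and 0 lower by limma, 1 higher and 1 lower by limma-voom, and 2 higher and 1 lower with p unadjusted. Of all tested genes, limma called 1.99% higher and 2.6% lower, and with p unadjusted 8.49% were higher and 11% lower. By limma-voom 2.57% of genes were higher and 4.25% lower. The median log2 fold changes of the 3 lists were 0.21, 0.09 and 0.11, against 0.00 for all tested genes.

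The 3 genes higher on both scales were Chchd1, Afg3l2 and Lrpprc. Lrpprc, whose product binds and stabilises mitochondrial messenger RNAs, had 37.5, 31.5 and 48.3 FPKM in Tfam KO and 14.2, 19.1 and 20.1 FPKM in Control (log2 fold change 0.76, SE 0.12, limma adjusted p = 0.00580). Chchd1, which encodes a small-subunit protein, had 13.7, 11.4 and 15.2 FPKM in Tfam KO and 6.27, 7.07 and 7.62 FPKM in Control (log2 fold change 0.54, SE 0.11, limma adjusted p = 0.0180). Afg3l2, a subunit of the inner-membrane protease that processes the ribosomal protein Mrpl32, had 34.5, 28.1 and 37.2 FPKM in Tfam KO and 15.2, 20.2 and 20.1 FPKM in Control (log2 fold change 0.49, SE 0.12, limma adjusted p = 0.0477). For each of these genes every Tfam KO library lay above every Control library, which as deposited was so in 25.6% of all tested genes.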

How the data were processed

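Each of the 6 libraries had a table of 23284 gene symbols, and the deposited values were log2(FPKM + 1), worked out from the steps of whole reads in them. TopHat2 2.0.7, HTSeq 0.5.3, CASAVA 1.8.2 and the mouse build mm9 appear in the submitters' processing notes without a stated role. Gene annotation, strand setting and FPKM method are not given in the sources used here. FPKM was divided by median-of-ratios size factors (0.812 to 1.33), and log2 of the result plus 1 was tested with limma 3.58.1 (R 4.3.3) with a variance trend, two-sided, over 10807 genes whose mean reached 1 FPKM. P-values were adjusted by Benjamini-Hochberg over all of these, with a threshold of 0.05. The values as deposited were tested the same way, but there limma took each gene's variance wholly from the trend over all genes. Calls on that scale thus rest mainly on the size of the fold change. Size factors assume that most genes do not change, so a shift common to most genes is removed. Library totals were recovered from the FPKM steps, and 17874 of 17876 genes gave whole reads, on which limma-voom called 278 genes higher and 459 lower. Reads of the comparison of Tfam KO with Control were simulated for the tested genes with whole reads. With size factors, 95 of 100 genes changed by 2-fold and 100 of 100 changed by 4-fold were recovered, with 15 false calls. The simulation gave all genes the same relative spread between libraries, no GC trend and no library that differed from its group beyond that spread. It checks the fit and does not measure how reliable the calls in these data are. Each library was a pool of separate hearts, so p-values measure the spread between pools. Chi-square values per degree of freedom between libraries were 8.88 to 45.5, so no library was a copy of another. Same-numbered libraries had correlations of deviations of 0.359, 0.0681 and 0.159, and differently numbered ones had -0.39 to 0.252. Whether the numbers pair the libraries is not known from these values, and the main fit did not use the numbers.

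The members, the lists and the tests were chosen with earlier results of these data known. Named were Tfam, every member past the threshold on either scale, the 5 largest and 5 smallest log2 fold changes, the 5 highest mean FPKM, the members whose symbol and place in the ribosome differ or that are paralogs, and of the other lists only genes past the threshold on both scales. Mrpl17, Mrpl38 and Mrpl53 and the genes beside members were named after their values were seen. GC content, positions and overlaps came from GENCODE vM21 on GRCm38, matched by symbol for all 76 members, and start regions from RefSeq on GRCm38.p6. A near-identical pseudogene had at least 95% identity over at least 200 bases. RefSeq windows were not at hand for Mrpl15, Mrpl54, Mrpl38, Mrpl13, Mrps34, Mrps28, Mrpl19, Mrps35 and Mrpl4.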

Additional observations from a re-analysis of the deposited data

How the results depend on the processing

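Against 3 members higher and 6 lower in Tfam KO with size factors, the values as deposited gave 11 higher and 2 lower, removal of the GC trend 5 higher and 6 lower, and no filter on low values 2 higher and 3 lower. Limma-voom gave 4 higher and 7 lower. Of all tested genes, 215 were higher and 281 lower. These counts were 671 and 125 as deposited, 401 and 382 without the GC trend, 164 and 144 without the filter, and 278 and 459 by limma-voom. Leaving out a library gave 0 to 2 members higher (0 without Control replicate 3) and 3 to 8 lower, with 134 to 216 genes higher and 126 to 353 lower. As deposited it gave 2 to 25 members higher (25 without Tfam KO replicate 2) and 2 to 3 lower, with the share of all tested genes not worked out. The Mrpl median was -0.05 to 0.07 without a library and 0.32 as deposited, the Mrps median -0.01 to 0.14 and 0.34, and their difference -0.09 to 0.04. The cause of these differences was not tested. Upper-quartile scaling, totals without Rn45s, pseudocounts of 0.1 and 5, a minimum of 5 FPKM and a fit without the variance trend gave 3 higher and 6 lower. Of the genes tested in each of these fits, 169 to 258 were higher and 237 to 302 lower. With the replicate number as a block, 3 members were higher and 7 lower, Mrpl38 being added. Of all tested genes, 278 were then higher and 421 lower. Whether the numbers pair the libraries is not known. Counts were as low as 18 reads for Mrpl20 in a library. Fold changes of low members such as Mrpl17 are understated most.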
